A study of Mus musculus with 4 samples.

Results

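The genes described are homeobox genes of 11 families, of which 10 are named LHX, POU, NKX, IRX, EN, GBX, DLX, PBX, MSX and PHOX2 after the stems of their symbols. The other family is that of the sine oculis genes, such as Six5. They were measured in the anterior and posterior lobes of the mouse cerebellum on postnatal day 7. Their probes were picked by symbol and not by their values, though with earlier results of these data known. The array holds 114 such probes of 64 genes among 45281 probes of 30854 gene symbols. Each lobe was represented by 2 samples of total RNA from untreated Swiss mice, and every sample had its own Illumina array of the type MouseWG-6 v2.0. The series was made to find genes that differ between the lobes. The labels do not say whether the 2 samples of a lobe came from separate animals, so the p-values measure only the spread between these samples, which may be technical.

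A homeobox gene encodes a transcription factor that binds DNA through its homeodomain. LIM, POU, sine oculis and PBX proteins carry a further domain beside it that binds a cofactor, a partner protein or DNA. Engrailed and GBX genes set up the midbrain and hindbrain territory from which the cerebellum arises, and IRX, NKX, DLX, MSX and PHOX2 genes divide the neural tube into domains or specify classes of neurons in it. In the cerebellum Lhx1 and Lhx5 are known from Purkinje cells and their precursors, and En1 and En2 from the patterning of the folia.

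On this array the brightness of a probe is the mean over its beads. A detection score over 0.95, which is 1 minus the detection p-value, was taken as detection. The 4 arrays had a median intensity of 110.2 to 129.6 over all probes and 21070 to 21574 detected probes, and between 42 and 44 of the homeobox probes were detected on each array. The values of the probes are intensities and not counts, and the number of arrays limits the precision. A probe was tested when it was detected on at least 2 of the 4 arrays, whatever the lobe. This held for 45 homeobox probes (39.5%) of 29 genes, against 48.0% of all probes on the array. Most tested homeobox probes were detected on all 4 arrays, as were 19914 of the 21726 tested probes of the whole array. Of all homeobox probes, 39 were detected on 4 arrays, 3 on 3 arrays, 3 on 2 arrays, 3 on 1 array and 66 on no array.

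The check of the tissue against marker genes gave the following. Of 8 granule neuron markers 6 had a tested probe, and of 7 Purkinje cell markers 4 had one, with Calb1, Car8 and Pcp4 without. None of 5 midbrain markers and 1 of 11 Hox genes of the caudal hindbrain (Hoxa4) had one. Of 5 choroid plexus markers 2 had one (Ttr and Aqp1). Their summed signal was 671.3 and 10570 on the anterior and 477.9 and 3837 on the posterior arrays, with replicate 2 higher in each lobe. The sum followed Ttr, with a log2 signal of 9.1 and 13.34 on the anterior and 8.37 and 11.85 on the posterior arrays. Aqp1 was dim, at 6.94 and 7.91 on the anterior and 7.210 and 7.215 on the posterior arrays. The part of choroid plexus in the homeobox values was not tested.

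Expression of the families was uneven. Both EN genes had a tested probe, with 3 probes in all, and the PBX genes had the most tested probes of any family. A tested probe was found for 4 of 6 IRX genes, and of the LHX genes for 4 of 8, of the POU genes 7 of 13, of the MSX genes 2 of 3, and of the GBX genes 1 of 2. The NKX genes had 2 of 12, the DLX genes 1 of 6 and the sine oculis genes 1 of 6. The 35 genes without a tested probe included Lhx2, Lhx4, Lhx6 and Lhx9, Pou1f1, Pou2f3, Pou3f4, Pou4f1 and Pou4f3, Nkx1-2, Nkx2-1, Nkx2-4, Nkx2-5, Nkx2-6, Nkx2-9, Nkx6-1, Nkx6-2 and Nkx6-3, Irx4 and Irx6, Gbx1, Dlx1, Dlx2, Dlx4, Dlx5 and Dlx6, Six2, Six3, Six4 and Six6, Msx2, and Phox2a. Of the 35, 32 genes had no probe detected on any array. Nkx6-2 was detected on anterior replicate 2 only, Pou3f4 on posterior replicate 1 only and Pou4f1 on posterior replicate 2 only. A probe that was not detected gives a bound on its signal and not a level of 0.

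**Figure D1:**
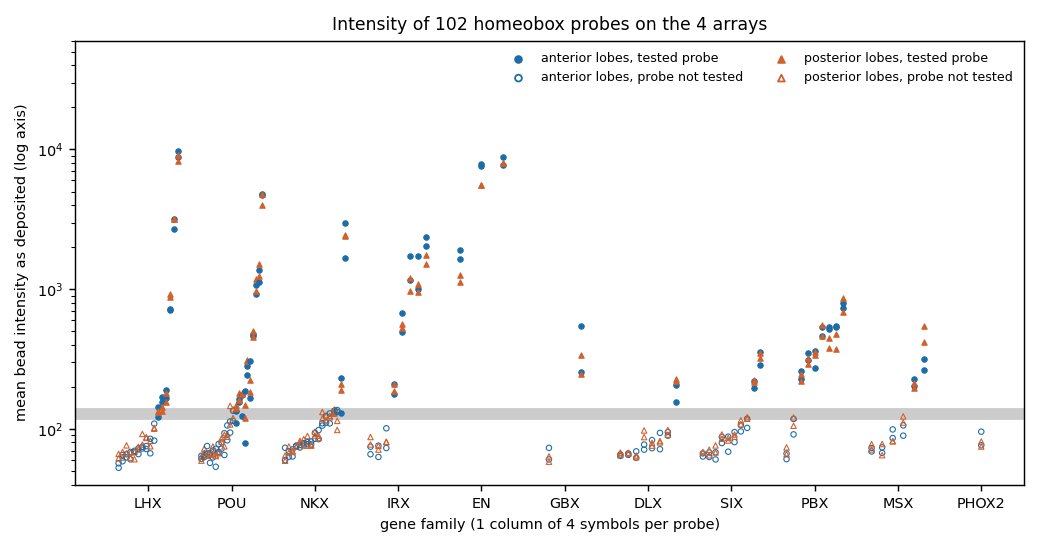
Mean bead intensity as deposited (log axis) of 102 of the 114 homeobox probes on the 4 arrays, grouped by family with 1 column of symbols per probe, circles for anterior and triangles for posterior lobes, filled where the probe was tested. The grey band spans the lowest detected intensity of the 4 arrays, 116.9 to 139.8, and most open symbols lie below it. Levels of different probes are not comparable.

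The detected members include neighbours on the chromosome. In the RefSeq order of GRCm38.p6, Irx1, Irx2 and Irx4 follow each other on chromosome 13 and Irx3, Irx5 and Irx6 on chromosome 8, with 0 protein-coding genes between neighbours. In both clusters the first pair of these genes was detected on 4 arrays and the last one on none. Dlx3 was detected while its neighbour Dlx4 was not, and Nkx2-2 was detected while its neighbour Nkx2-4 was not. The pairs Dlx1 with Dlx2 and Dlx5 with Dlx6 were undetected as pairs, as were Six2 and Six3.

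The lobes were compared probe by probe on the log2 scale after quantile normalization. Differences are posterior minus anterior, were fitted with limma, and had their p-values adjusted by Benjamini-Hochberg over all 21726 tested probes. None of the 45 homeobox probes passed an adjusted p of 0.05, where 0.106% of all tested probes (23) did, and the lowest adjusted p of a homeobox probe was 0.262. At an unadjusted p under 0.05 there were 8 of 45 homeobox probes, against 10.1% of all tested probes. The criterion stated in the study's methods (over 1.2-fold, p under 0.05) was met by the same 8 probes (17.8%) of 7 genes, against 8.29% of all tested probes. Higher posterior values were found for 3 of them (Msx1, Lhx5 and Dlx3) and lower ones for 5 (both En1 probes and 1 probe each of Irx2, Pbx3 and Lhx3). The background was 3.30% for higher and 5.00% for lower probes. The split held under some scalings and moved under others. With neqc background correction and with cyclic loess it stayed at 3 higher and 5 lower. After a shift of the arrays to a common 75th percentile it was 6 higher and 3 lower, against 8.41% of all tested probes. Without normalization it was 1 higher and 3 lower, against 6.06%. With the methods' t-test in place of limma, 1 homeobox probe (Irx2 ILMN_3115213) met the criterion, against 3.41% of all tested probes.

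In 22 of 45 homeobox probes (48.9%) both posterior arrays lay on one side of both anterior arrays, against 42.6% of all tested probes. In 12 probes (26.7%) the posterior arrays were above, against 21.1% of all tested probes, and in 10 (22.2%) they were below, against 21.5%. The median log2 difference over the 45 probes was 0.02, against 0.002 over all tested probes, with 24 positive and 21 negative values from -0.56 to 0.75. Leaving out 1 array changed the sign of 18 of the 45 differences. The standard error of a difference had a median of 0.12. With 2 arrays a lobe, no two-sided exact permutation test can give a p below 0.333. Every p below that rests on an assumed normal distribution, and with limma also on the spread estimated across probes. Of 11 genes with more than 1 tested probe, 7 had probes of the same sign (En1, Irx2, Lhx3, Nkx2-2, Pbx3, Pou2f1 and Six5). Of the Pou2f1 probes, 1 passed the detection filter through the posterior arrays alone. The other 4 genes had probes of both signs, among them Lhx1, Pbx2 and Pbx4.

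**Figure D2:**
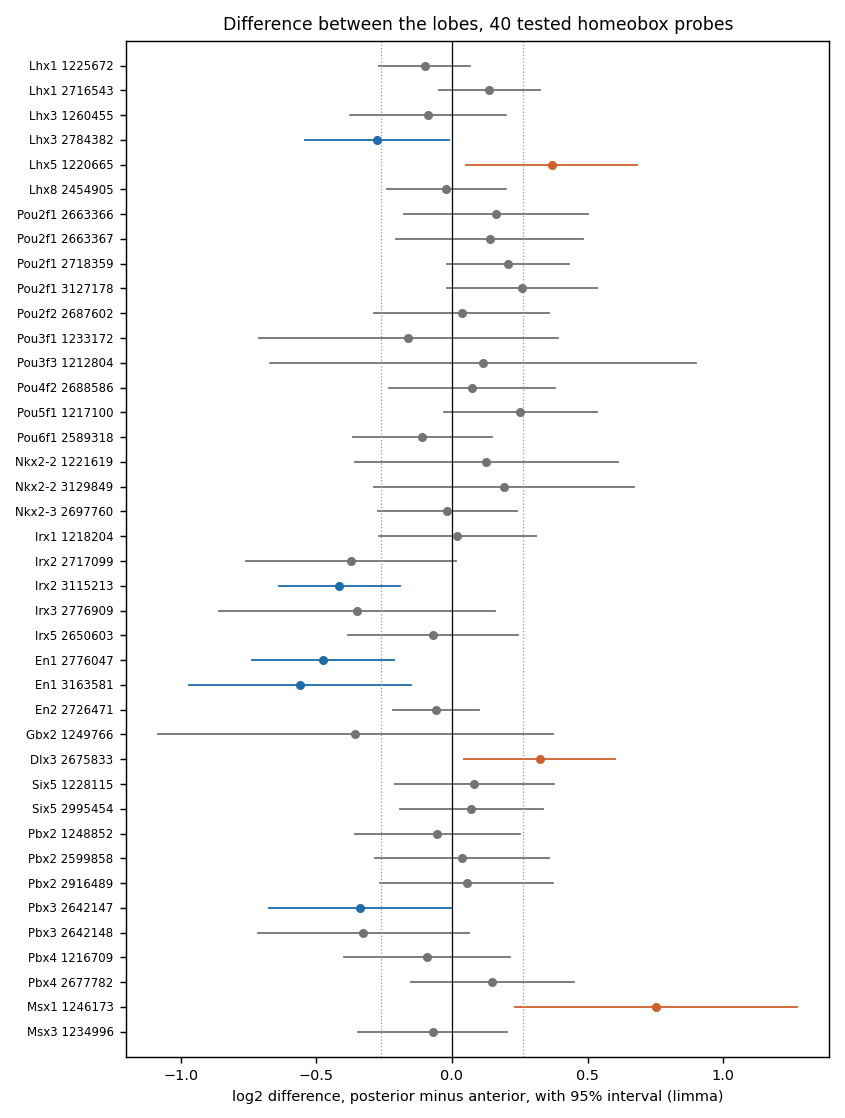
Difference in log2 signal, posterior minus anterior, of 40 of the 45 tested homeobox probes with the 95% interval of limma. Each row is a probe, named by its gene and probe number. Orange and blue mark the 3 higher and 5 lower probes that met the criterion of 1.2-fold with an unadjusted p under 0.05, and dotted lines mark 1.2-fold. The En1 probes at -0.56 and -0.47 and the Msx1 probe at 0.75 lie farthest from 0.

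The engrailed genes come first. En1 encodes a repressor needed for the formation of the midbrain and cerebellum, and both of its probes had lower values in the posterior lobes. Probe ILMN_2776047 had a log2 signal of 12.78 and 13.07 on the anterior arrays and 12.48 and 12.41 on the posterior arrays. The groups did not overlap, and the posterior arrays differed from each other by less than the anterior ones. The difference was -0.47 (standard error 0.11, 95% interval -0.74 to -0.21, adjusted p = 0.266 by limma), a 1.39-fold lower signal. As deposited, its intensities were 7590 and 7913 in the anterior and 5584 and 5568 in the posterior lobes.

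The other En1 probe, ILMN_3163581, had a log2 signal of 10.57 and 11.00 on the anterior arrays and 10.35 and 10.11 on the posterior arrays. Again the groups did not overlap, with anterior replicate 2 the highest. The difference was -0.56 (standard error 0.17, 95% interval -0.97 to -0.15, adjusted p = 0.383 by limma), or 1.47-fold lower. ILMN_2776047 met the criterion with each array left out in turn (-0.62 to -0.32), while ILMN_3163581 lost it without posterior replicate 2 (-0.44, unadjusted p = 0.1045 by limma). Without anterior replicate 1 both passed the adjustment, at adjusted p = 0.0004 and 0.0018, in a fit where 2538 of all 21201 tested probes did. In such a fit a lobe with 1 array borrows the spread of the lobe with 2.

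En2, the paralogue of En1, had a difference near 0. Its probe ILMN_2726471 had a log2 signal of 13.00 and 13.04 on the anterior and 13.00 and 12.93 on the posterior arrays. The values differed by -0.06 (standard error 0.06, 95% interval -0.22 to 0.10, adjusted p = 0.783 by limma), so that the interval excludes a difference as large as that of either En1 probe. Whether the En1 and En2 differences themselves differ was not tested. The signals of En1 and En2 come from different probes and have no common scale.

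Gbx2, which marks the hindbrain side of the midbrain and hindbrain border, had a log2 signal of 8.96 and 8.14 on the anterior arrays and 8.43 and 7.96 on the posterior arrays (ILMN_1249766). The groups overlapped, and within each lobe replicate 1 was higher than replicate 2. The difference was -0.36 (standard error 0.30, 95% interval -1.08 to 0.37, adjusted p = 0.716 by limma), and it was 0.06 without anterior replicate 1 and -0.76 without anterior replicate 2.

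The 250 bases before the transcription start of En1, Irx2 and Msx1 are shown because these 3 genes had the lowest unadjusted p-values among the homeobox genes. They come from RefSeq on GRCm38.p6 and are written 5′ to 3′ on the strand of the gene. Capitals mark every match, on either strand, to the 7 motifs searched. These were the homeodomain core TAATTA, the octamer ATGCAAAT that POU proteins bind, the MEIS half-site TGACAG, TGATNNAT for PBX with a neighbouring homeodomain, the CCAAT box, the GC box GGGCGG and TATAAA. Overlapping matches were each counted.

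En1, chr1:120602237-120602486, plus strand: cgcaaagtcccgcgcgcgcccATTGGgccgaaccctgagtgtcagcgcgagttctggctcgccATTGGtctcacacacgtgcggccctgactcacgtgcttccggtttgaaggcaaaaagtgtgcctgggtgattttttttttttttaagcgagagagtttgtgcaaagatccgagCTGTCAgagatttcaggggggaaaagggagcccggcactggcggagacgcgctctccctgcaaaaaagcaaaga

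Irx2, chr13:72628570-72628819, plus strand: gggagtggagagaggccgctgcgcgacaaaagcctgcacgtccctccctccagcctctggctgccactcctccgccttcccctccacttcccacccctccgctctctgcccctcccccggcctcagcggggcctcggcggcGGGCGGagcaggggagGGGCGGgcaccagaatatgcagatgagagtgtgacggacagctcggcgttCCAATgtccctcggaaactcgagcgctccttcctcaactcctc

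Msx1, chr5:37824586-37824835, minus strand: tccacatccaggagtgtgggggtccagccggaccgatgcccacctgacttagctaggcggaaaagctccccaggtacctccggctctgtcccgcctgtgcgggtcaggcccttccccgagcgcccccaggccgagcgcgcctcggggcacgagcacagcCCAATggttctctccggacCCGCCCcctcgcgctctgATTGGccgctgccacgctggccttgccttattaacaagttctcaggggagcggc

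The En1 stretch held 2 CCAAT boxes and 1 TGACAG. The Irx2 stretch held 2 GC boxes and 1 CCAAT box, and the Msx1 stretch held 2 CCAAT boxes and 1 GC box. RefSeq entries were held here for 52 promoters of 43 of the 64 genes. A GC box stood in 63.5% of them, against 32.7% of all 32851 promoters, and a CCAAT box in 44.2% against 33.9%. The shares were 17.3% against 15.9% for TGACAG, 3.85% against 7.68% for TGATNNAT, 7.69% against 12.4% for TATAAA and 1.92% against 4.84% for TAATTA, which stood in the promoter of Msx2 alone. ATGCAAAT stood in 0 of 52, against 1.60%. The homeobox promoters had a median GC content of 62.0% and 15.5 CpG dinucleotides, against 52.4% and 6 over all promoters. The GC content was alike for genes with a tested probe (61.8%) and genes without one (62.4%). A match is a description of these letters and not a bound site.

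Among the IRX genes, which encode TALE homeodomain proteins that pattern the neural tube, 4 of 5 tested probes had negative differences. Irx2 had the lowest unadjusted p of all homeobox probes. Probe ILMN_3115213 had a log2 signal of 11.10 and 11.08 on the anterior arrays and 10.61 and 10.74 on the posterior arrays. The anterior arrays lay close together and both posterior arrays were below them. The difference was -0.42 (standard error 0.09, 95% interval -0.64 to -0.19, adjusted p = 0.262 by limma), a 1.33-fold lower signal. It met the criterion in 13 of 14 alternatives and missed it without posterior replicate 1 (-0.35, unadjusted p = 0.052 by limma). Without anterior replicate 1 its difference was -0.41.

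The other detected Irx2 probe, ILMN_2717099, also had both posterior arrays below both anterior arrays, at 9.96 and 10.21 against 10.64 and 10.28. Its difference of -0.37 had a 95% interval of -0.76 to 0.01. It was -0.19 without anterior replicate 1 and -0.56 without anterior replicate 2, where it met the criterion. A further Irx2 probe was not detected on any array, with intensities of 63.0 to 75.9.

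Irx3 (ILMN_2776909) had 10.65 and 10.07 on the anterior and 10.14 and 9.88 on the posterior arrays, a difference of -0.35 with an interval of -0.86 to 0.16 and overlapping groups. It was -0.64 without anterior replicate 2 and -0.06 without anterior replicate 1. The intervals of Irx5 (-0.07, -0.38 to 0.24) and of Irx1 (0.02, -0.27 to 0.31) contained 0, and both genes had overlapping groups.

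**Figure D3:**
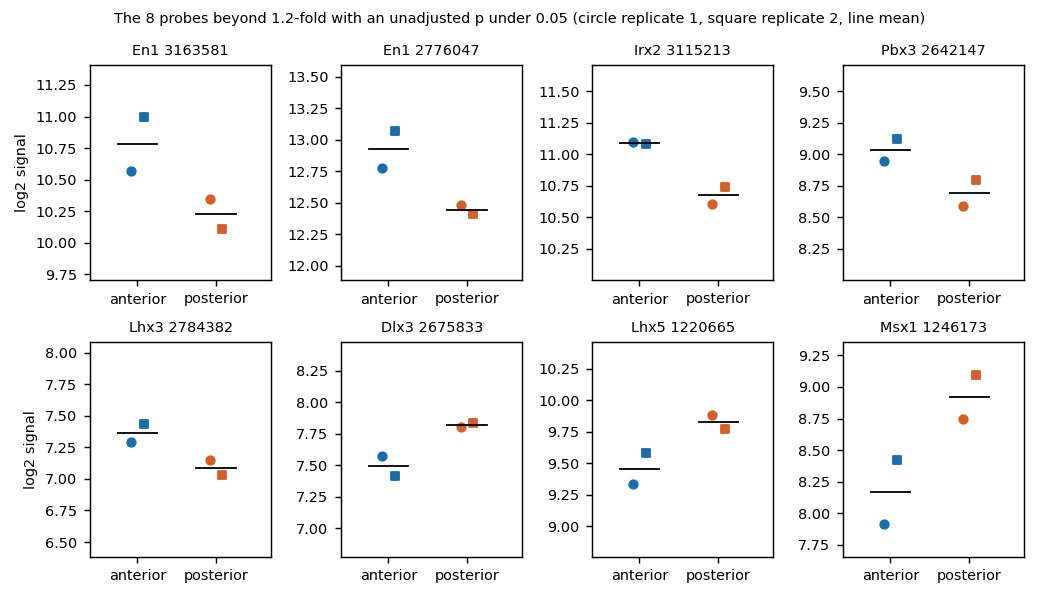
Log2 signal after quantile normalization of the 8 homeobox probes that met the criterion of 1.2-fold with an unadjusted p under 0.05, in anterior and posterior lobes, with circles for replicate 1, squares for replicate 2 and a line for the mean of the 2 arrays. Each panel spans the same log2 width around its own centre. In each panel the anterior and posterior arrays do not overlap, and the gap between En1 replicates is wider in the anterior lobes.

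The LHX genes encode LIM homeodomain factors, which act through the cofactor Ldb1. Lhx5 (ILMN_1220665) had a log2 signal of 9.34 and 9.58 on the anterior and 9.88 and 9.77 on the posterior arrays. Both posterior arrays were above both anterior arrays. The difference was 0.37 (standard error 0.13, 95% interval 0.05 to 0.68, adjusted p = 0.437 by limma), or 1.29-fold higher. It met the criterion without anterior replicate 2 (0.49) and missed it without anterior replicate 1 (0.25), posterior replicate 1 (0.31) or posterior replicate 2 (0.42).

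The brightest LHX probe, ILMN_1225672 of Lhx1, had 13.15 and 13.23 on the anterior and 13.04 and 13.14 on the posterior arrays. The posterior arrays were just below the anterior ones. The difference was -0.10 (standard error 0.07, 95% interval -0.27 to 0.07, adjusted p = 0.652 by limma). The other Lhx1 probe, ILMN_2716543, had both posterior arrays above (0.14, 95% interval -0.05 to 0.32), so the probes of this gene had opposite signs. The summed signal of the tested Purkinje markers was 61460 and 63830 on the anterior and 59570 and 57940 on the posterior arrays, with 0 of 10 probes past the criterion.

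Lhx3, a factor of motor neuron and pituitary development, was close to the detection limit. Probe ILMN_2784382 had a log2 signal of 7.30 and 7.44 on the anterior and 7.15 and 7.03 on the posterior arrays, and it was not detected on posterior replicate 2. The difference was -0.28 (standard error 0.11, 95% interval -0.54 to -0.01, adjusted p = 0.478 by limma), or 1.21-fold lower. It met the criterion with anterior replicate 1 left out (-0.34) and missed it without anterior replicate 2 (-0.21), posterior replicate 1 (-0.34) or posterior replicate 2 (-0.22). The other detected Lhx3 probe differed by -0.09, and 3 more were not detected on any array. Lhx8 (-0.02, 95% interval -0.24 to 0.20) was also near the limit, with 1 posterior array without detection.

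The POU genes had 10 tested probes of 7 genes, of which none met the criterion, and 8 had positive differences between 0.04 and 0.26. Pou2f1, which encodes the widely expressed octamer factor Oct-1, had 6 probes, of which 4 were tested, all with positive differences (0.14 to 0.26). Of these, ILMN_2718359 passed the detection filter through the posterior arrays alone, which favours a positive difference. Probe ILMN_3127178 had 8.01 and 8.06 on the anterior and 8.31 and 8.27 on the posterior arrays, with a difference of 0.26 (95% interval -0.02 to 0.54). Probe ILMN_2718359 was detected in the posterior lobes alone, on both arrays, as were 0.214% of all probes. No homeobox probe was detected on both arrays of the anterior lobes alone, as were 0.651% of all probes. Its log2 signal was 6.98 and 6.93 on the anterior and 7.14 and 7.19 on the posterior arrays, and its detection scores were 0.943 and 0.925 against 0.962 and 0.969. The difference was 0.21 (95% interval -0.02 to 0.43, adjusted p = 0.530 by limma). With the lowest detected signal in place of lower anterior values, the posterior mean was 1.11-fold higher, a bound that was not tested. The differences of the other 2 tested Pou2f1 probes, ILMN_2663366 and ILMN_2663367, turned to -0.01 and -0.04 without posterior replicate 1, the brightest of the 4 arrays for both.

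Pou6f1, a factor found mainly in brain, held the brightest POU probe (ILMN_2589318), with 12.11 and 12.32 on the anterior and 12.02 and 12.20 on the posterior arrays. The groups overlapped, and the difference was -0.11 (standard error 0.10, 95% interval -0.37 to 0.15, adjusted p = 0.752 by limma). Pou3f1 and Pou3f3, of the class that is active in neural progenitors and glia, had wide intervals. Pou3f1 was at -0.16 (-0.71 to 0.39), and it was at -0.46 without anterior replicate 2, where it met the criterion, and at 0.14 without anterior replicate 1. Pou3f3 was at 0.11 (-0.67 to 0.90) with detection on replicate 1 of each lobe only, and at -0.39 without anterior replicate 2, where it met the criterion in the lower direction. Pou5f1, the pluripotency factor Oct4, had 7.33 and 7.11 on the anterior and 7.49 and 7.46 on the posterior arrays, near the detection limit (0.25, 95% interval -0.03 to 0.53). The difference was 0.35 without anterior replicate 1, where it met the criterion, and 0.15 without anterior replicate 2. Which transcript a probe matches was not examined here. Pou4f2 and Pou2f2 were at 0.07 and 0.04, with overlapping groups.

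The NKX genes were mostly undetected. Nkx2-2, a ventral neural tube factor that is also expressed in cells of the oligodendrocyte lineage, was the exception, with 2 tested probes. Probe ILMN_1221619 had a log2 signal of 11.43 and 10.81 on the anterior and 11.29 and 11.21 on the posterior arrays. The anterior arrays differed more from each other than the lobes did. The difference was 0.13 (standard error 0.20, 95% interval -0.36 to 0.61, adjusted p = 0.860 by limma). It was 0.44 without anterior replicate 1 and -0.18 without anterior replicate 2, so its direction rests on 1 array. Probe ILMN_3129849 also had anterior replicate 2 as its lowest array. Its difference was 0.19, with 0.47 without anterior replicate 1 and -0.09 without anterior replicate 2. Nkx2-3 was detected on replicate 2 of each lobe only and was at -0.02 (95% interval -0.27 to 0.24).

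Markers of oligodendrocytes moved with the lobes. Of 12 genes 11 had tested probes, and 21 of 23 probes met the criterion in the lower direction, with a median log2 difference of -0.99. Their summed signal was 136700 and 135400 on the anterior and 92600 and 86080 on the posterior arrays, and Olig2 had no tested probe. Nkx2-2 did not have that order of the arrays. The part of these cells in the lower En1, Irx2, Pbx3 and Lhx3 values was not tested. In whole lobes, fewer cells of a type and less RNA per cell cannot be told apart.

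The MSX genes encode repressors that act downstream of BMP signals. Msx1 (ILMN_1246173) had the largest difference of the 45 homeobox probes, with a log2 signal of 7.91 and 8.42 on the anterior and 8.75 and 9.10 on the posterior arrays. Both posterior arrays were above both anterior arrays, and replicate 2 was the higher one in each lobe. The difference was 0.75 (standard error 0.21, 95% interval 0.23 to 1.27, adjusted p = 0.355 by limma), or 1.69-fold higher. As deposited, its intensities were 263.8 and 314.7 in the anterior and 422.2 and 547.2 in the posterior lobes. It met the criterion without anterior replicate 1 (0.50), anterior replicate 2 (1.00) or posterior replicate 1 (0.93), and missed it without posterior replicate 2 (0.57, unadjusted p = 0.092 by limma). Without anterior replicate 2 its adjusted p was 0.018, in a fit where 1.04% of all tested probes passed.

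The other Msx1 probe was not detected on any array, at 89.5 to 122.9, and so gives no second measurement of Msx1. Msx3, which is expressed in the dorsal neural tube, was at -0.07 (95% interval -0.35 to 0.20), and Msx2 was not detected. Markers of meningeal fibroblasts had higher values in the posterior lobes. All 6 genes had tested probes, 6 of 9 probes of 4 genes met the criterion in the higher direction, and the median difference was 0.51. Their summed signal was 5793 and 6047 on the anterior and 10580 and 11160 on the posterior arrays. The part of these cells, or of choroid plexus, in the Msx1 value was not tested.

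The DLX and sine oculis families had 1 gene each with a tested probe. Dlx3, known from skin, tooth and placenta, had a log2 signal of 7.57 and 7.42 on the anterior and 7.80 and 7.83 on the posterior arrays (ILMN_2675833). The posterior arrays were close together and above both anterior arrays. This only Dlx3 probe was dim, with intensities of 154.9 to 228.4, where the lowest detected intensities of the arrays were 116.9 to 139.8. The difference was 0.32 (standard error 0.11, 95% interval 0.05 to 0.60, adjusted p = 0.437 by limma), or 1.25-fold higher. Without anterior replicate 1 it met the criterion (0.40), and it missed it without anterior replicate 2 (0.24), posterior replicate 1 (0.34) or posterior replicate 2 (0.31). Dlx1, Dlx2, Dlx5 and Dlx6, which act in GABAergic neurons of the forebrain, were not detected.

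Six5 was the detected gene of the sine oculis family. Its probe ILMN_1228115 had 8.34 and 8.30 on the anterior and 8.34 and 8.46 on the posterior arrays. The difference was 0.08 (standard error 0.12, 95% interval -0.21 to 0.38, adjusted p = 0.845 by limma), and the other Six5 probe was at 0.07.

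The PBX genes encode TALE cofactors that bind DNA together with other homeodomain proteins, and they were the family with the most tested probes. Both detected Pbx3 probes had lower values in the posterior lobes without overlap. Probe ILMN_2642147 had a log2 signal of 8.94 and 9.12 on the anterior and 8.59 and 8.79 on the posterior arrays, and its difference was -0.34 (standard error 0.14, 95% interval -0.67 to -0.002, adjusted p = 0.495 by limma), or 1.26-fold lower. It met the criterion without anterior replicate 1 (-0.43) and missed it without anterior replicate 2 (-0.25), posterior replicate 1 (-0.24) or posterior replicate 2 (-0.44). Probe ILMN_2642148 was at -0.33 with an interval of -0.72 to 0.06. It ranged from -0.49 without posterior replicate 2 to -0.17 without posterior replicate 1, and met the criterion without anterior replicate 1.

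The 3 Pbx2 probes lay between -0.05 and 0.05, and the 2 Pbx4 probes were at -0.09 and 0.15.

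**Figure D4:**
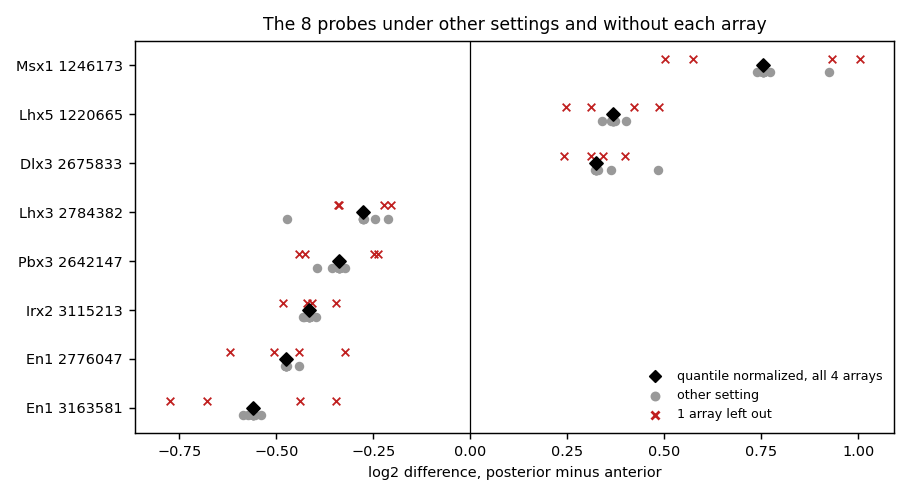
Difference in log2 signal, posterior minus anterior, of the 8 homeobox probes that met the criterion, with a diamond for the value with quantile normalization and all 4 arrays, grey points for other normalizations, filters and fits, and crosses for fits with 1 array left out. No probe changes sign, which the choice of these probes by their difference makes likely in advance. The crosses of Msx1 span 0.50 to 1.00 and those of En1 ILMN_3163581 span -0.77 to -0.35.

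Partner genes of these families were read from 5 lists of 48 genes in all, of which 29 genes had 59 tested probes. The median log2 difference of these probes was 0.0003. Of them 3 met the criterion in the higher and 4 in the lower direction, against 3.30% and 5.00% of all tested probes. Among LIM partners and relatives (cofactors such as Ldb1 and Ssbp3, and LMO proteins) 0 of 17 probes met it. The brightest, a probe of Ssbp3, was at 0.19 with a 95% interval of 0.03 to 0.35, while the other tested Ssbp3 probes were at -0.13 and 0.03. Among TALE partners 1 of 15 probes met it, for Meis3 at -0.33, while the other tested Meis3 probes were at 0.0003 and -0.01. The brightest TALE probe, of Meis1, was at 0.15, and the other tested Meis1 probes were at -0.12 and 0.05. Among partners of the sine oculis proteins, which include EYA coactivators and DACH corepressors, 2 of 8 probes met the criterion. They were 1 probe each of Eya1 (0.49) and Dach1 (0.36). This Dach1 probe was near the detection limit, with intensities of 105.3 to 167.7. The other tested probes had the opposite sign, at -0.11 for Eya1 and at -0.12, -0.22 and -0.20 for Dach1. Among Groucho corepressors, which engrailed proteins recruit, 2 of 14 probes met the criterion, for Tle2 at -0.42 and Tle6 at -0.32. The other Tle2 probe was at -0.27, and the brightest Groucho probe, of Tle4, was at -0.12. Further tested Tle4 probes were at 0.26 and -0.03. Among genes of the midbrain and hindbrain border 2 of 5 probes met the criterion. Otx1 was at -0.71, and Otx2 was at 3.82 and was the only one of the 59 probes that passed the adjustment (adjusted p = 0.015 by limma). Fgf8, Fgf17, Fgf18, Wnt1, Pax2, Pax5, Pax8, Spry1 and Spry2 of that list had no tested probe.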

How the data were processed

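RNA from the anterior and posterior cerebellar lobes of postnatal day 7 Swiss mice was isolated with Tri Reagent, biotinylated cRNA was put on Illumina arrays (MouseWG-6 v2.0), and GenomeStudio 1.9.0 gave the values. For each probe and array, the mean bead intensity was deposited, per the file headers without normalization. The authors also deposited, for each probe, the SD of the bead intensity, the number of beads and a detection score, a fraction equal to 1 minus the detection p-value. Probes had a median of 40 to 42 beads per array. Background subtraction is not given in the sources used here. The methods state a floor of 1, log base 2 and the criterion of a fold change over 1.2 with p under 0.05. Their array section names no test, and their general section on statistics names a t-test with equal variance. With 2 arrays per lobe limma was used for the results, and that t-test, here the fit without moderation of the variance, as an alternative. Further columns (16, such as minima and maxima) were left aside.

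The intensities were quantile normalized, floored at 1 (no value lay below) and log2 transformed in R 4.3.3. Posterior minus anterior was fitted with limma 3.58.1 (lmFit, eBayes with an intensity trend) on the 21726 probes with a detection score over 0.95 on at least 2 of 4 arrays, with Benjamini-Hochberg adjustment over them. A difference to a lobe without detection is given as a bound, against that lobe's mean, with the array's lowest detected signal in place of any lower value. The scripts were tested on simulated data. Tables and figures were made with Python 3.11.15.

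The probes, the gene lists and the tests were chosen with earlier results of these data known. Values on all arrays are given for each homeobox probe that met the criterion, the brightest tested probe of each family, EN and GBX genes, and probes detected on both arrays of 1 lobe only. Values of other probes were added after they had been seen. Some of the 64 genes are in the counts but not reported here one by one. Of the partner lists, probes that met the criterion and the brightest tested one are named. All 64 homeobox symbols matched RefSeq for GRCm38.p6. Alternatives were neqc (offset 16), no normalization, a 75th percentile shift, cyclic loess, no filter, detection on all 4 arrays, a detection score over 0.99, no trend, a block by replicate number, the methods' t-test, each array left out, and fold thresholds of 1.5 or none.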

Additional observations from a re-analysis of the deposited data

How the results depend on the processing

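The count of homeobox probes past an adjusted p of 0.05 was 0 with all 4 arrays under each alternative background correction, normalization, filter and variance setting. Left-out arrays gave 0 to 7, with 7 without anterior replicate 1 and 2 without anterior replicate 2, where 2538 of 21201 and 221 of 21185 tested probes passed. The count that met the criterion of 1.2-fold with an unadjusted p under 0.05 was 8. It was 4 without normalization (6.06% of all tested probes), 1 with the methods' t-test (3.41%), where 0 of all tested probes passed the adjustment, and 1 at 1.5-fold. With 1 array left out it ranged from 2 to 14, with 14 without anterior replicate 1 (22.1% of all tested probes), 10 without anterior replicate 2 (9.17%), 3 without posterior replicate 1 (3.58%) and 2 without posterior replicate 2 (3.8%). The other alternatives without a block gave 7 to 12 probes, the 12 with no filter on dim probes. The cause was not tested. All 8 probes kept their sign under the alternatives in which they were tested. They were chosen by their difference in these data and their lobes did not overlap, so their sign could hardly change. Changes of the filter, the trend, the moderation or the block leave the difference itself as it is. The median log2 difference of the homeobox probes stayed between -0.01 and 0.05. Left-out arrays moved Gbx2 between -0.76 and 0.056, positive without anterior replicate 1, and Nkx2-2 (ILMN_1221619) between -0.18 and 0.44, negative without anterior replicate 2.

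With the replicate number as a block, 2 homeobox probes passed an adjusted p of 0.05 (Msx1 with 0.011 and En1 ILMN_2776047 with 0.023), where 2.71% of all tested probes did, and 13 met the criterion, against 13.0% of all tested probes. The samples share only a number in the labels. The replicate 1 minus replicate 2 differences of the lobes correlated with r = 0.458 across the 21726 tested probes, which are not independent, and there are only 2 pairs.

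The number of arrays limits these values more than the beads do. Over all tested probes, the 2 anterior arrays differed with an SD of 0.32 on the log2 scale and the 2 posterior arrays with one of 0.20, while the standard error over the beads of a tested homeobox probe had a median of 3.69% to 4.07% of its intensity. Probes near the lowest detected intensity, 116.9 to 139.8, can understate a difference.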
